A study of Oryza sativa with 12 samples.

Results

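A set of 26 genes was at a high level in caryopses of the wildtype *WYJ8* at 5 days after flowering (DAF) and again in caryopses of the RNAi line *RGB1Ri-5* at 10 DAF, and at a low level in the other groups, *WYJ8* at 10 DAF and *RGB1Ri-5* at 5 DAF. The genes were chosen on group means of FPKM (fragments mapped to a gene per kilobase of its transcript, relative to all mapped fragments of that library). Both high means had to be at least 20 FPKM, and the smaller high mean had to be at least 4 times the larger low mean. Of the 35587 genes listed in at least 1 library, 5823 had both high means at 20 FPKM or more, and 26 met both limits. By the same limits, 3 genes had the inverse pattern, high in *WYJ8* at 10 DAF and in *RGB1Ri-5* at 5 DAF. That count cannot be set against the 26, because most genes were low in the *WYJ8* libraries at 10 DAF, as described below. A low mean was easier to reach in that group and a high mean harder. No inverse count after rescaling of the libraries is given. All 26 averaged 1 FPKM or more over the 12 libraries, the filter for testing, which 21470 genes passed.

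*WYJ8* (Wuyujing 8) is the rice variety in which the transgenic lines were made. *RGB1Ri-5* is 1 transgenic line of that background with a hairpin against *RGB1*, the gene of the β subunit of the heterotrimeric G protein, under the maize ubiquitin promoter, which drives expression in most tissues. The groups *WYJ8* at 5 DAF, *RGB1Ri-5* at 5 DAF, *WYJ8* at 10 DAF and *RGB1Ri-5* at 10 DAF had 3 libraries each, all from caryopses, and the labels name no other treatment. Nothing in the labels says whether replicates came from separate plants, so p-values measure the spread between these libraries, which may be technical in part.

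Heterotrimeric G proteins pass signals from the cell surface, with the β and γ subunits acting as a unit beside the α subunit. The rice caryopsis is a mixture of maternal tissues (pericarp, seed coat, nucellus) and of the endosperm and embryo formed at fertilisation. In the first days after flowering the endosperm goes through nuclear division and forms cells, while the pericarp is still large and green. Starch and storage proteins then fill the endosperm, and much of the nucellus and inner pericarp is broken down. In such bulk samples, a lower FPKM from fewer cells of a type and one from less RNA of that gene per cell cannot be told apart.

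None of the sources used here gives a name or a product for any of the 26 genes, so they are described by their MSU identifiers and positions in Release 7 of that annotation, and no role is given. None of them is among the 128 identifiers in the supplement of the study. The level of *RGB1* itself and the markers of caryopsis tissues were not analysed here for the same reason, so neither the knockdown nor the tissue make-up of the libraries was checked.

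The sum of FPKM per library was 543480 to 618797, with 27055 to 29576 genes listed, and the number of reads behind a value is unknown. The 3 *WYJ8* libraries at 10 DAF stood apart. Their 100 highest genes held 48.7% to 52.8% of all FPKM, against 12.9% to 22.4% in the other 9 libraries, and their median over the tested genes was 4.90 to 5.25 FPKM, against 8.95 to 11.2. A low FPKM in that group is therefore low within a library in which most genes were low, and values after rescaling are given where they change a result.

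The group means of the 26 genes ran from 20.3 to 3422 FPKM (median 58.3) in *WYJ8* at 5 DAF and from 21.8 to 1262 FPKM (median 51.0) in *RGB1Ri-5* at 10 DAF. In the low groups they ran from 0.0228 to 88.5 FPKM (median 5.99) in *RGB1Ri-5* at 5 DAF and from 0 to 31.6 FPKM (median 5.88) in *WYJ8* at 10 DAF, where the 0 is a gene that is not listed. For 25 of the 26 genes, every library of the high groups lay above every library of the low groups. The exception was LOC_Os01g55690. The 4-fold limit on the means largely built this separation in, and its share over all tested genes was not computed.

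**Figure D1:**
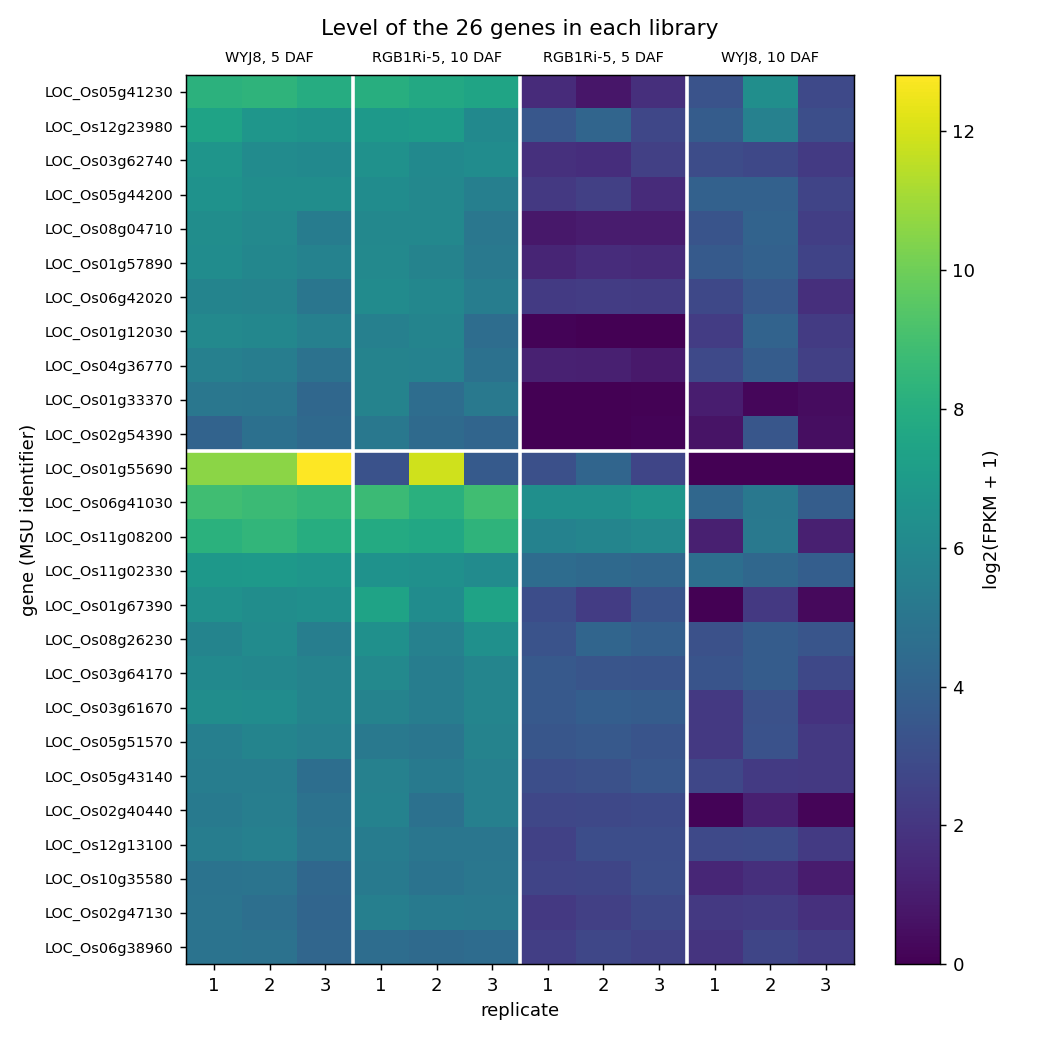
Heatmap of log2(FPKM + 1) for the 26 genes (rows) in the 12 libraries (columns, by replicate number within each group). Genes not listed in a library are drawn at 0; the white horizontal line separates the 11 genes with the lower mean in RGB1Ri-5 at 5 DAF (above) from the 15 with the lower mean in WYJ8 at 10 DAF (below). The 6 columns on the left are high and the 6 on the right low, except for LOC_Os01g55690 in replicates 1 and 3 of RGB1Ri-5 at 10 DAF.

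Calls between a high and a low group were fixed by the choice of the genes and are given as a description. With limma on log2(FPKM + 1), a call needed a Benjamini-Hochberg adjusted p below 0.05 together with a change of 1 or more on the log2 scale. All 26 were downregulated in *RGB1Ri-5* against *WYJ8* at 5 DAF (10.1% of tested genes) and upregulated in *RGB1Ri-5* at 10 DAF (36.4%). From 5 to 10 DAF, all 26 fell in *WYJ8* (33.3% of tested genes) and 24 rose in *RGB1Ri-5* (7.56%). After a median-of-ratios rescaling the same numbers of the 26 were called, and the shares of tested genes were 8.49%, 9.25%, 7.37% and 6.24% in the same order.

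Under every setting tried, 3 genes met the limits. The settings were 4 rescalings, unlisted values as missing, 3-fold and 6-fold limits, medians in place of means, and leaving out each of the 12 libraries. The 3 genes were LOC_Os01g33370, LOC_Os01g67390 and LOC_Os03g62740. In the values below, the 3 numbers of a group are replicates 1, 2 and 3.

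LOC_Os01g33370 (chromosome 1, 18374764 to 18376668) was at 33.2, 31.5 and 18.4 FPKM in *WYJ8* at 5 DAF and at 52.1, 22.6 and 34.6 FPKM in *RGB1Ri-5* at 10 DAF. It was unlisted in replicates 1 and 2 of *RGB1Ri-5* at 5 DAF and at 0.0685 FPKM in replicate 3, and in *WYJ8* at 10 DAF it was at 1.04, 0.181 and 0.345 FPKM. Its lowest high library was 17.7 times its highest low library, the widest such gap of the 26. Its level was near 0 FPKM in both low groups.

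LOC_Os01g67390 (chromosome 1, 39136936 to 39139380) was at 88.0, 76.2 and 82.6 FPKM in *WYJ8* at 5 DAF and at 172, 73.4 and 172 FPKM in *RGB1Ri-5* at 10 DAF. The low groups held 7.25, 3.86 and 9.07 FPKM in *RGB1Ri-5* at 5 DAF and 0.0257, 3.40 and 0.236 FPKM in *WYJ8* at 10 DAF. Replicate 2 of *WYJ8* at 10 DAF was thus the highest of its group, and replicate 2 of *RGB1Ri-5* at 10 DAF the lowest of its own.

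LOC_Os03g62740 (chromosome 3, 35498813 to 35506824) was at 101, 70.6 and 65.8 FPKM in *WYJ8* at 5 DAF and at 88.9, 67.4 and 73.7 FPKM in *RGB1Ri-5* at 10 DAF. It was at 2.46, 2.19 and 4.43 FPKM in *RGB1Ri-5* at 5 DAF, against 6.79, 5.80 and 3.60 FPKM in *WYJ8* at 10 DAF. The lowest high library, at 65.8 FPKM, was 9.70 times the highest low library, and the gene met the limits whichever library was left out.

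Whether the genes reached at 10 DAF in *RGB1Ri-5* the level of *WYJ8* at 5 DAF is a difference for which the limits set no direction, although they required both means to be high. None of the 26 was called, higher or lower, against 0.554% of tested genes called higher and 0.54% called lower. An unadjusted p under 0.05 was reached by 3 of the 26 (LOC_Os01g55690, LOC_Os02g47130 and LOC_Os11g02330), against 17.3% of tested genes. The estimates lay between -1 and 1 on the log2 scale for 25 of the 26, as they did for 97.3% of all tested genes, and 10 of the 26 were above 0. The median was -0.15, beside 0.03 over all tested genes.

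These misses do not show equal levels. The 95% interval of the difference lay inside -1 to 1 for 12 of the 26 genes, and for the other 14 it reached past a 2-fold difference. LOC_Os03g62740 had one of the narrow intervals, with -0.03 on the log2 scale (95% interval -0.57 to 0.51). LOC_Os11g08200 had a wide one, with -0.25 (95% interval -2.03 to 1.52).

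LOC_Os02g47130 (chromosome 2, 28768768 to 28772100) had the largest positive estimate. It was at 29.8, 24.2 and 17.0 FPKM in *WYJ8* at 5 DAF and at 44.5, 36.3 and 35.4 FPKM in *RGB1Ri-5* at 10 DAF, with no overlap. The difference was 0.72 on the log2 scale (SE 0.22, limma adjusted p = 0.121) and was not called. In the low groups it was at 3.33, 4.37 and 5.87 FPKM in *RGB1Ri-5* at 5 DAF, against 3.37, 3.65 and 2.39 FPKM in *WYJ8* at 10 DAF.

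LOC_Os11g02330 (chromosome 11, 680033 to 680909) lay on the other side, at 112, 121 and 105 FPKM in *WYJ8* at 5 DAF and at 91.8, 86.5 and 71.3 FPKM in *RGB1Ri-5* at 10 DAF. These groups did not overlap either, but the difference of -0.44 on the log2 scale (SE 0.18, limma adjusted p = 0.245) did not pass. Its low values were 22.3, 19.5 and 17.7 FPKM in *RGB1Ri-5* at 5 DAF and 24.0, 18.4 and 13.2 FPKM in *WYJ8* at 10 DAF.

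LOC_Os01g55690 (chromosome 1, 32072448 to 32082488) entered the set through 1 library. It was at 1557, 1524 and 7186 FPKM in *WYJ8* at 5 DAF, the highest levels of the set. In *RGB1Ri-5* at 10 DAF replicate 2 was at 3765 FPKM, while replicates 1 and 3 were at 8.30 and 11.5 FPKM, within the range of *RGB1Ri-5* at 5 DAF (7.79, 16.8 and 5.47 FPKM). Without replicate 2 of *RGB1Ri-5* at 10 DAF the gene no longer met the limits, nor did it with medians.

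The same gene was unlisted in all 3 libraries of *WYJ8* at 10 DAF, as were 5838 genes in all. Of these, 51 averaged 20 FPKM or more and 6 averaged 100 FPKM or more over the other 9 libraries. An unlisted value can be a failed estimate, in which case the low level of LOC_Os01g55690 in *WYJ8* at 10 DAF is not a measurement, and with unlisted values as missing it left the set. The difference of *RGB1Ri-5* at 10 DAF from *WYJ8* at 5 DAF was -5.09 on the log2 scale (SE 1.74, limma adjusted p = 0.161) with all libraries and -7.90 (limma adjusted p = 1.41e-05) without replicate 2 of *RGB1Ri-5* at 10 DAF. Whether this gene was called lower thus turned on that library.

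**Figure D2:**
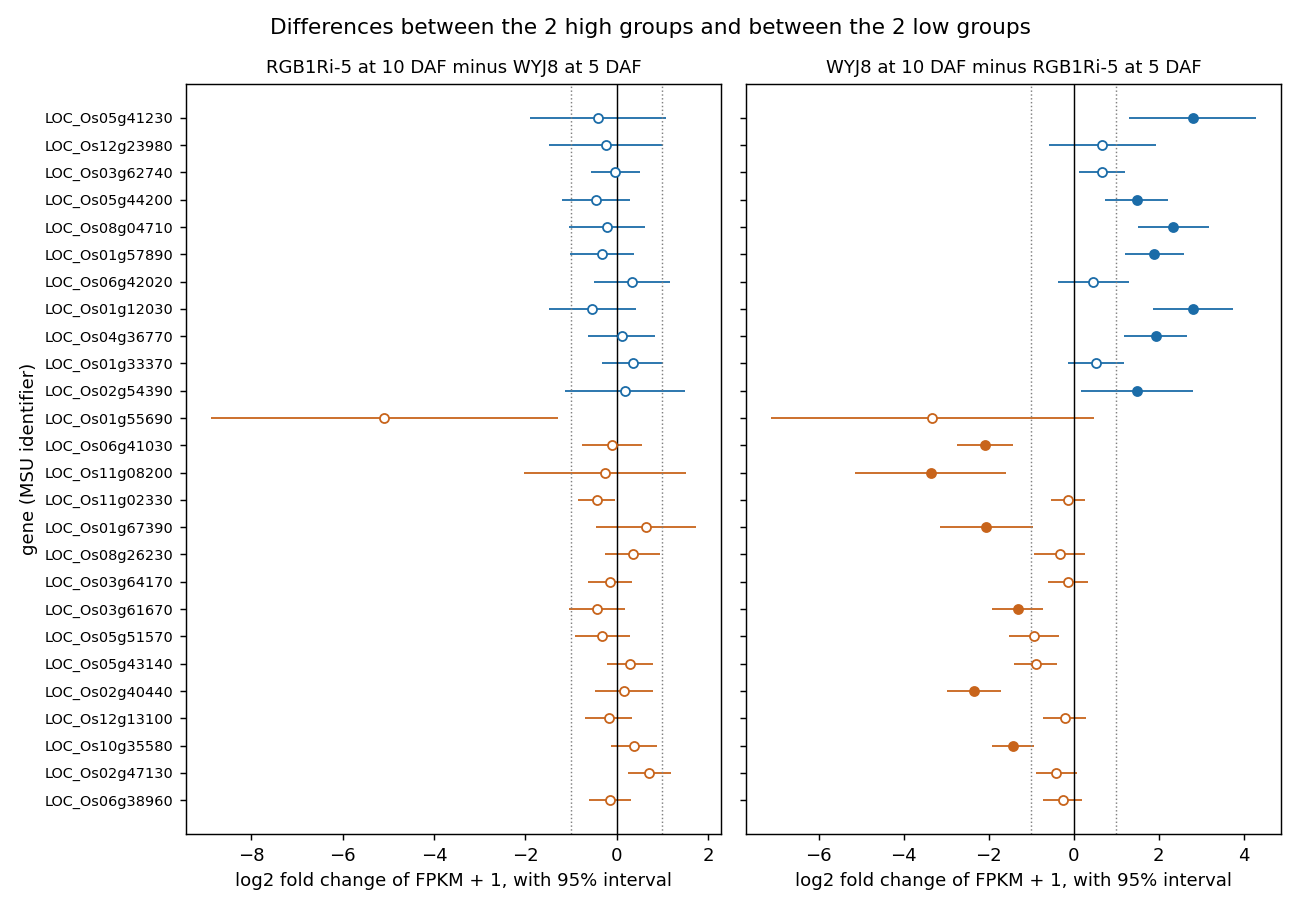
Log2 fold change of FPKM + 1 from limma for each of the 26 genes (points) with its 95% interval (lines): RGB1Ri-5 at 10 DAF minus WYJ8 at 5 DAF on the left, WYJ8 at 10 DAF minus RGB1Ri-5 at 5 DAF on the right. Filled points were called, dotted lines mark -1 and 1, and colours mark the low group with the lower mean (blue, RGB1Ri-5 at 5 DAF; orange, WYJ8 at 10 DAF). No point is filled on the left, and 7 are filled above 0 and 6 below 0 on the right.

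Of the 26 genes, 13 (50%) were called between the low groups and 0 between the high groups, beside 45.1% and 1.09% of all tested genes. Between *WYJ8* at 10 DAF and *RGB1Ri-5* at 5 DAF, 7 of the 26 genes (26.9%) were called higher in *WYJ8* at 10 DAF, against 6.42% of tested genes, and 6 (23.1%) were called lower, against 38.7%. The estimates ran from -3.36 to 2.81 on the log2 scale with a median of -0.17, beside -0.74 over all tested genes. The limits capped the means of both low groups. Over all tested genes, 10.1% were called lower in *RGB1Ri-5* than in *WYJ8* at 5 DAF. In *WYJ8*, 33.3% were called lower at 10 DAF than at 5 DAF. Asking for a low level in both groups can thus itself move the shares of the 26 away from those of all tested genes. Nothing is concluded from that difference. The background also depends on the scaling. Of the calls over all tested genes, 14.2% were higher ones as deposited. The share of calls was 44.7% after a median-of-ratios rescaling, 47.1% after quantile normalization and 37.4% after scaling to an equal total without the 100 highest genes. The median over all tested genes moved to -0.04, 0.04 and -0.16. Under those rescalings 10, 10 and 9 of the 26 were called higher, against 14.6%, 14.5% and 12.2% of tested genes. Those called lower were 4, 4 and 4, against 18.1%, 16.2% and 20.4% of tested genes. LOC_Os03g62740 and LOC_Os06g42020 were added to the higher genes by all 3 rescalings and LOC_Os12g23980 by the first 2.

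Among the genes that were higher in *WYJ8* at 10 DAF, LOC_Os01g12030 (chromosome 1, 6541004 to 6544461) had the largest difference. In *RGB1Ri-5* at 5 DAF it was at 0.0740 FPKM, unlisted and at 0.0349 FPKM, and in *WYJ8* at 10 DAF at 3.81, 15.8 and 3.71 FPKM. The difference was 2.81 on the log2 scale (SE 0.43, limma adjusted p = 8.94e-05). Its high values were 64.6, 59.7 and 46.6 FPKM in *WYJ8* at 5 DAF and 46.9, 53.3 and 23.3 FPKM in *RGB1Ri-5* at 10 DAF, so the gene was near 0 FPKM in *RGB1Ri-5* at 5 DAF and at an intermediate level in *WYJ8* at 10 DAF.

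LOC_Os05g41230 (chromosome 5, 24149268 to 24151542) had the highest level of these genes, at 299, 318 and 241 FPKM in *WYJ8* at 5 DAF and 264, 208 and 178 FPKM in *RGB1Ri-5* at 10 DAF. It was at 1.99, 0.704 and 2.32 FPKM in *RGB1Ri-5* at 5 DAF, against 8.85, 79.7 and 6.18 FPKM in *WYJ8* at 10 DAF. The low groups did not overlap and differed by 2.80 on the log2 scale (SE 0.68, limma adjusted p = 0.00255), but replicate 2 of *WYJ8* at 10 DAF was 10.6 times the mean of the other 2 replicates. Without that library the difference was 1.71 and was still called.

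LOC_Os08g04710 (chromosome 8, 2344011 to 2344747) was at 0.777, 0.945 and 0.963 FPKM in *RGB1Ri-5* at 5 DAF, against 9.13, 15.8 and 4.25 FPKM in *WYJ8* at 10 DAF, a difference of 2.35 on the log2 scale (SE 0.38, limma adjusted p = 0.000126). Its high values were 76.0, 63.9 and 40.4 FPKM in *WYJ8* at 5 DAF and 61.4, 62.1 and 33.2 FPKM in *RGB1Ri-5* at 10 DAF. In both high groups replicate 3 was the lowest library.

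That order recurred in LOC_Os04g36770 (chromosome 4, 22205217 to 22205925), with 47.2, 42.2 and 27.2 FPKM in *WYJ8* at 5 DAF and 52.1, 50.1 and 26.2 FPKM in *RGB1Ri-5* at 10 DAF. Its low values were 1.25, 1.15 and 0.860 FPKM in *RGB1Ri-5* at 5 DAF and 6.14, 12.2 and 4.32 FPKM in *WYJ8* at 10 DAF, a difference of 1.93 on the log2 scale (SE 0.34, limma adjusted p = 0.000233). LOC_Os01g57890 (chromosome 1, 33471899 to 33478535) was at 1.52, 2.11 and 1.89 FPKM in *RGB1Ri-5* at 5 DAF, against 11.5, 14.8 and 4.97 FPKM in *WYJ8* at 10 DAF, a difference of 1.90 (SE 0.32, limma adjusted p = 0.000175). It too was lowest in replicate 3 of each high group, with 74.2, 60.2 and 49.6 FPKM in *WYJ8* at 5 DAF and 63.3, 51.3 and 34.6 FPKM in *RGB1Ri-5* at 10 DAF.

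LOC_Os05g44200 (chromosome 5, 25682814 to 25685057) was at 3.31, 4.45 and 1.99 FPKM in *RGB1Ri-5* at 5 DAF, against 14.9, 14.6 and 5.22 FPKM in *WYJ8* at 10 DAF, a difference of 1.49 on the log2 scale (SE 0.34, limma adjusted p = 0.00165). Here replicates 1 and 2 of *WYJ8* at 10 DAF were alike, and the groups did not overlap. Its high values were 91.4, 76.2 and 75.5 FPKM in *WYJ8* at 5 DAF and 74.2, 62.2 and 44.6 FPKM in *RGB1Ri-5* at 10 DAF.

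The seventh, LOC_Os02g54390 (chromosome 2, 33330508 to 33331432), rested on few values. It was unlisted in replicates 1 and 2 of *RGB1Ri-5* at 5 DAF and at 0.0817 FPKM in replicate 3, and at 0.614, 9.84 and 0.400 FPKM in *WYJ8* at 10 DAF. The difference of 1.5 on the log2 scale (SE 0.60, limma adjusted p = 0.0367) fell to 0.55 (limma adjusted p = 0.0748) without replicate 2 of *WYJ8* at 10 DAF, and over all alternatives the adjusted p was 0.00194 to 0.187. Its high values were 15.9, 25.2 and 19.9 FPKM in *WYJ8* at 5 DAF and 33.8, 20.8 and 17.1 FPKM in *RGB1Ri-5* at 10 DAF. Their means of 20.3 and 23.9 FPKM lay above the floor of 20 FPKM, although single libraries lay below it.

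Of the genes that were lower in *WYJ8* at 10 DAF, LOC_Os11g08200 (chromosome 11, 4295157 to 4297681) had the largest difference. It was at 51.0, 56.5 and 64.1 FPKM in *RGB1Ri-5* at 5 DAF, against 1.21, 35.4 and 1.22 FPKM in *WYJ8* at 10 DAF, -3.36 on the log2 scale (SE 0.81, limma adjusted p = 0.00233). Replicate 2 of *WYJ8* at 10 DAF was 29.1 times the mean of the other replicates, and without it the difference was -4.71. In the high groups the gene was at 285, 347 and 252 FPKM in *WYJ8* at 5 DAF and at 229, 201 and 320 FPKM in *RGB1Ri-5* at 10 DAF.

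LOC_Os02g40440 (chromosome 2, 24516373 to 24518200) had much the same profile at a lower level. It was at 5.73, 5.93 and 6.36 FPKM in *RGB1Ri-5* at 5 DAF, against 0.0758, 1.18 and 0.123 FPKM in *WYJ8* at 10 DAF, a difference of -2.34 on the log2 scale (SE 0.29, limma adjusted p = 1.68e-05). Its high values were 37.5, 43.1 and 27.5 FPKM in *WYJ8* at 5 DAF and 49.6, 26.7 and 46.8 FPKM in *RGB1Ri-5* at 10 DAF. As in LOC_Os01g67390 and LOC_Os11g08200, replicate 2 was the highest library of *WYJ8* at 10 DAF and the lowest of *RGB1Ri-5* at 10 DAF. For LOC_Os01g67390, whose values stand above, the low groups differed by -2.06 (SE 0.50, limma adjusted p = 0.00242).

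LOC_Os06g41030 (chromosome 6, 24502389 to 24507547) was well above 0 in every library. It was at 475, 419 and 358 FPKM in *WYJ8* at 5 DAF and 430, 283 and 477 FPKM in *RGB1Ri-5* at 10 DAF, against 83.6, 80.9 and 101 FPKM in *RGB1Ri-5* at 5 DAF and 18.1, 34.2 and 12.6 FPKM in *WYJ8* at 10 DAF. The low groups differed by -2.09 on the log2 scale (SE 0.30, limma adjusted p = 4.99e-05), and the 4 groups fell into 3 levels, with the high groups overlapping.

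The calls of LOC_Os10g35580 and LOC_Os03g61670 depended on the scaling. LOC_Os10g35580 (chromosome 10, 19033884 to 19036321) was at 5.18, 5.36 and 7.35 FPKM in *RGB1Ri-5* at 5 DAF, against 1.59, 2.31 and 0.949 FPKM in *WYJ8* at 10 DAF, -1.43 on the log2 scale (SE 0.23, limma adjusted p = 0.000113) as deposited and -0.56 after quantile normalization. LOC_Os03g61670 (chromosome 3, 34948004 to 34955910) was at 11, 13.2 and 12.3 FPKM in *RGB1Ri-5* at 5 DAF, against 3.43, 8.04 and 2.62 FPKM in *WYJ8* at 10 DAF, -1.32 (SE 0.28, limma adjusted p = 0.000914) as deposited and -0.43 after quantile normalization. Neither was past the fold limit after quantile normalization, a median-of-ratios rescaling or scaling without the 100 highest genes. Their high values were 28.2, 29.7 and 18.4 FPKM in *WYJ8* at 5 DAF and 38.4, 27.9 and 32.8 FPKM in *RGB1Ri-5* at 10 DAF for LOC_Os10g35580. For LOC_Os03g61670 they were 75.9, 73.8 and 53.5 FPKM in *WYJ8* at 5 DAF and 51.9, 41.7 and 55.4 FPKM in *RGB1Ri-5* at 10 DAF.

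The other 8 genes were LOC_Os12g23980, LOC_Os08g26230, LOC_Os03g64170, LOC_Os06g42020, LOC_Os05g51570, LOC_Os05g43140, LOC_Os12g13100 and LOC_Os06g38960. The highest was LOC_Os12g23980 (chromosome 12, 13625243 to 13627725), with 123 ± 42.8 FPKM in *WYJ8* at 5 DAF, 105 ± 33.0 FPKM in *RGB1Ri-5* at 10 DAF, 11 ± 5.91 FPKM in *RGB1Ri-5* at 5 DAF and 22.6 ± 22.3 FPKM in *WYJ8* at 10 DAF (mean ± SD, n = 3). Its lowest high library was 1.40 times its highest low library, the narrowest gap without overlap. LOC_Os06g42020 (chromosome 6, 25231213 to 25242965) was at 46.0 ± 12.2, 58.3 ± 15.4, 3.70 ± 0.201 and 6.37 ± 4.37 FPKM in the same order of groups.

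LOC_Os05g43140 (chromosome 5, 25044638 to 25045646) and LOC_Os05g51570 (chromosome 5, 29579043 to 29580698) came closest to a call between the low groups, with -0.90 and -0.93 on the log2 scale in *WYJ8* at 10 DAF against *RGB1Ri-5* at 5 DAF (limma adjusted p = 0.00362 and 0.00765). Both missed the fold limit as deposited and passed it when each library was scaled to an equal total (-1.01 and -1.05). After quantile normalization the differences were -0.0025 and -0.04 (limma adjusted p = 0.992 and 0.896), and after a median-of-ratios rescaling -0.14 and -0.16. LOC_Os08g26230 (chromosome 8, 15984165 to 15991648), LOC_Os03g64170 (chromosome 3, 36256014 to 36259499), LOC_Os12g13100 (chromosome 12, 7285911 to 7287583) and LOC_Os06g38960 (chromosome 6, 23119057 to 23122451) had estimates of -0.33, -0.13, -0.21 and -0.26 for that difference, with no call. Their low means, first in *RGB1Ri-5* at 5 DAF and then in *WYJ8* at 10 DAF, were 13.1 and 9.98 FPKM, 9.72 and 9.13 FPKM, 6.29 and 5.34 FPKM, and 4.86 and 3.98 FPKM.

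**Figure D3:**
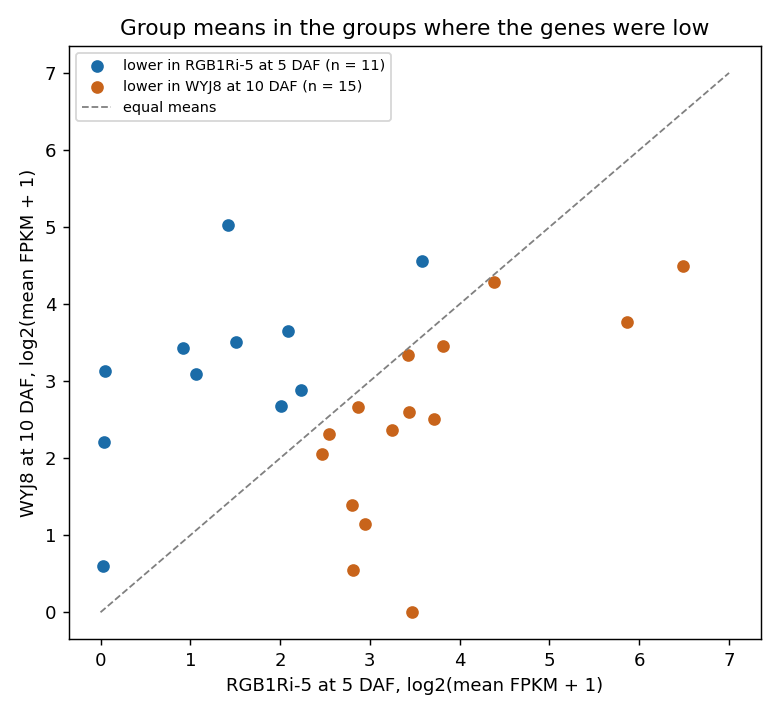
Mean level of the 26 genes (points) in RGB1Ri-5 at 5 DAF (x axis) and in WYJ8 at 10 DAF (y axis), both as log2(mean FPKM + 1), with the line of equal means. As deposited, the 11 genes above the line had a median mean of 1.67 FPKM in RGB1Ri-5 at 5 DAF, and the 15 genes below it had a median mean of 9.72 FPKM there. After a median-of-ratios rescaling, 17 genes would lie above the line and 9 below.

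The low group with the lower mean divided the set into 11 genes with the lower mean in *RGB1Ri-5* at 5 DAF and 15 with the lower mean in *WYJ8* at 10 DAF. This division was made after the values were seen, no test was run on it, and it depends on the scaling. It stayed at 11 and 15 with equal totals, but became 17 and 9 after a median-of-ratios rescaling or scaling without the 100 highest genes and 19 and 7 after quantile normalization. LOC_Os02g47130, LOC_Os03g64170, LOC_Os06g38960, LOC_Os08g26230, LOC_Os11g02330 and LOC_Os12g13100 changed side under all 3 of these rescalings, and LOC_Os05g43140 and LOC_Os05g51570 under quantile normalization alone. In the 11 genes the median of the group means was 1.67 FPKM in *RGB1Ri-5* at 5 DAF and 7.78 FPKM in *WYJ8* at 10 DAF. In the 15 genes it was 9.72 FPKM and 4.70 FPKM.

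Which library of *RGB1Ri-5* at 10 DAF was the lowest was not used to divide the genes, and it is given here as a description. As deposited, replicate 3 was the lowest in 9 of the 11 genes (81.8%), against 20.2% of all tested genes. Replicate 2 was the lowest in 11 of the 15 genes (73.3%), against 67.8% of all tested genes, so that share was near the background as deposited. After the median-of-ratios rescaling replicate 3 was the lowest in 14 of the 17 genes (82.4%, against 35.1% of tested genes), and replicate 2 in 5 of the 9 (55.6%, against 42.9%). After quantile normalization these were 14 of 19 (73.7%, against 37.5%) and 6 of 7 (85.7%, against 42.5%). With scaling without the 100 highest genes they were 14 of 17 (82.4%, against 29.8%) and 6 of 9 (66.7%, against 49.5%). The background of replicate 2 thus depends on the scaling. The ratio of replicate 3 to replicate 2 had a median of 0.69 in the 11 genes, 1.30 in the 15 genes and 1.23 over all tested genes, as deposited.

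Replicate 2 of *WYJ8* at 10 DAF was the highest of its group in 20 of the 26 genes (76.9%), against 35.8% of tested genes. It was at least 2 times the mean of the other replicates in 13 of the 25 listed genes (52%). The background was 2.20% of 17900 tested genes that averaged 1 FPKM or more in *WYJ8* at 10 DAF. The 25 were not held to that mean. LOC_Os02g40440 and LOC_Os01g33370 averaged 0.461 and 0.521 FPKM there, so their ratios rest on values near 0. The 13 came from both groups of genes, and LOC_Os11g08200 (29.1 times), LOC_Os01g67390 (26 times), LOC_Os02g54390 (19.4 times), LOC_Os02g40440 (11.9 times) and LOC_Os05g41230 (10.6 times) led them. LOC_Os01g33370 went the other way, at 0.261 times. In *WYJ8* at 5 DAF, replicate 3 was the lowest in 22 of the 26 genes (84.6%), against 56.3% of tested genes.

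**Figure D4:**
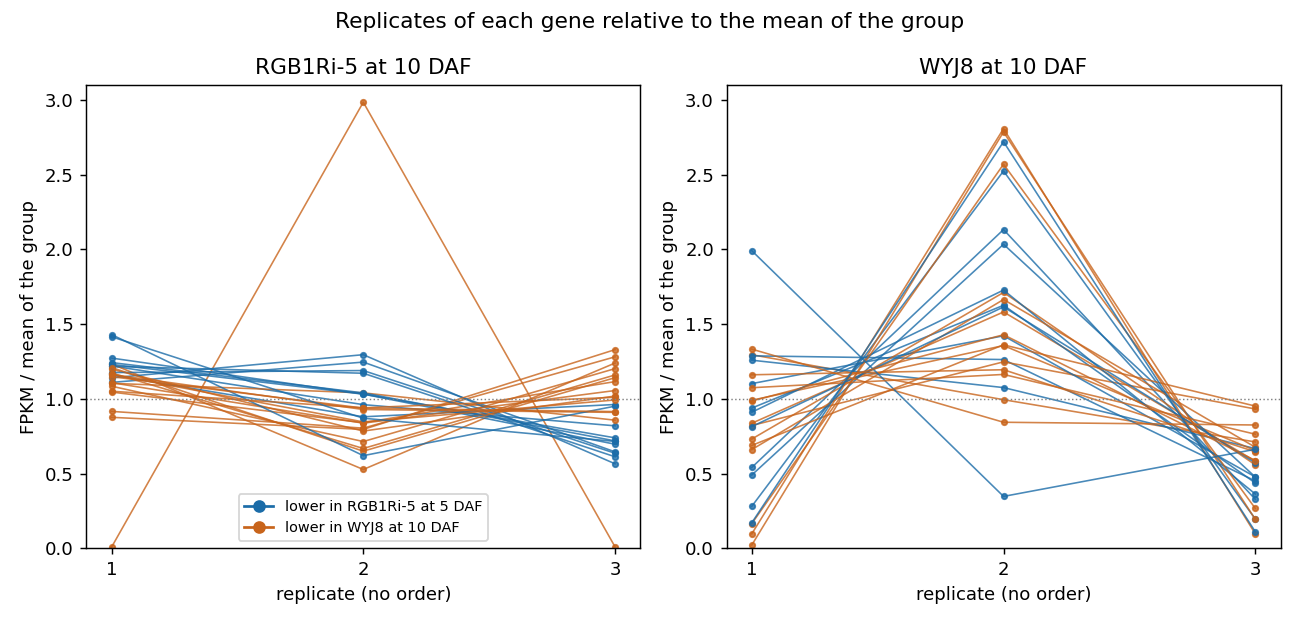
FPKM of each gene in each replicate divided by the mean of its group (y axis), for RGB1Ri-5 at 10 DAF (left) and WYJ8 at 10 DAF (right). Lines join the values of 1 gene and imply no order; blue genes had the lower mean in RGB1Ri-5 at 5 DAF and orange genes in WYJ8 at 10 DAF, and LOC_Os01g55690 is left out on the right, where it is not listed. On the right most of the 25 genes drawn peak in replicate 2 (20 genes), and on the left the orange line that rises to 3 is LOC_Os01g55690.

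Replicates of these genes were more spread than those of other genes in all 4 groups, and most so in *WYJ8* at 10 DAF. There the coefficient of variation had a median of 51.9% over the 23 genes that averaged 1 FPKM or more in that group, beside 12.3% over all tested genes above the same mean. It was 22.7% beside 13.7% in *WYJ8* at 5 DAF, 18.0% beside 11.7% in *RGB1Ri-5* at 5 DAF and 25.9% beside 17.2% in *RGB1Ri-5* at 10 DAF.

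To read the same measure in a library that the choice had not used, the limits were applied to the other 11 libraries and the library left out was then examined. A library of a high group had to be at least 4 times the larger low mean, and a library of a low group at most 1 in 4 of the smaller high mean. The genes chosen without replicate 3 of *RGB1Ri-5* at 10 DAF numbered 28, of which 15 (53.6%) held in that library, against 1.14% of all tested genes. For replicate 2 of *WYJ8* at 10 DAF it was 19 of 33 (57.6%, against 11.9%), and for replicate 3 of *WYJ8* at 5 DAF 21 of 31 (67.7%, against 0.755%).

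Replicate 2 of *RGB1Ri-5* at 10 DAF held 20 of 29 genes (69.0%, against 0.876%). Replicates 2 and 3 of *RGB1Ri-5* at 5 DAF held 84.6% and 71.4% (against 4.36% and 4.29% of tested genes), and the other 6 libraries held 91.3% to 100% of the genes chosen without them. The genes were chosen for this pattern in the other libraries, those of the same group included. A larger share than over all tested genes was therefore built in, and nothing is concluded from it. Over the 5823 genes with both high means at 20 FPKM or more, 5.00% held in replicate 2 of *WYJ8* at 10 DAF. There it was 0.738% for replicate 3 of *RGB1Ri-5* at 10 DAF and 0.412% for replicate 3 of *WYJ8* at 5 DAF. The libraries in which the pattern held least were those named above as low or high within their group.

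Close to the limits there was no gap. The genes just inside the 4-fold limit were LOC_Os05g51570 (the smaller high mean was 4.06 times the larger low mean), LOC_Os03g61670 (4.09 times) and LOC_Os11g02330 (4.19 times). Just outside were LOC_Os12g27940 (3.96 times), LOC_Os02g34860 (3.86 times) and LOC_Os02g13870 (3.83 times). At the floor of 20 FPKM, LOC_Os02g54390 lay inside with a smaller high mean of 20.3 FPKM, and LOC_Os08g26990 outside with 19.4 FPKM.

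The size of the set depended on the scaling. Median-of-ratios factors divided the 3 *WYJ8* libraries at 10 DAF by 0.591 to 0.630 and the others by 1.08 to 1.32. Then 7 genes met the limits, all among the 26. The 19 that were lost all fell below the 4-fold limit. In 15 of them *WYJ8* at 10 DAF had the larger low mean after rescaling and in 4 *RGB1Ri-5* at 5 DAF, and 3 of the 19 also had a high mean under 20 FPKM. Those kept were LOC_Os01g33370, LOC_Os01g55690, LOC_Os01g67390, LOC_Os02g40440, LOC_Os03g62740, LOC_Os06g41030 and LOC_Os11g08200, and these 7 met the limits under all 4 rescalings. With each library scaled to an equal total of 1000000, which multiplied the values by 1.62 to 1.84 against the same floor of 20, 55 genes met the limits, among them all 26. Of the 26, 15 were kept whichever single library was left out.

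**Figure D5:**
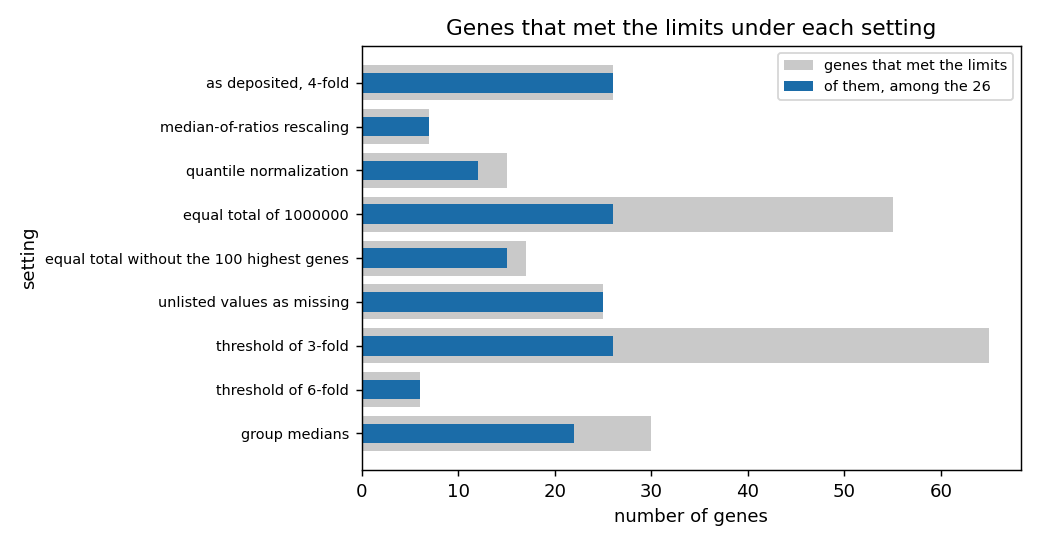
Number of genes that met the limits (x axis) under each setting (y axis): grey bars show all genes and blue bars those among the 26. The count was 26 as deposited, 7 after a median-of-ratios rescaling and 55 with equal totals.

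The positions of the 26 genes in the genome are given as a description. They lay on 10 of the 12 chromosomes. Chromosome 1 held 5 of them (19.2%), against 14.3% of tested genes. Chromosomes 7 and 9 held none, against 7.71% and 5.42% of tested genes. No neighbouring pair was within 100000 bases, and the closest, LOC_Os03g61670 and LOC_Os03g62740 on chromosome 3, were 542903 bases apart. No background over all tested genes was computed for these distances. Their spans ran from 709 to 11753 bases with a median of 2464, beside 3477 for all tested genes.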

How the data were processed

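Caryopses of both genotypes, taken at 5 and 10 DAF, were sequenced in 12 libraries, 3 per group, with the groups and replicate numbers as labelled. Reads were aligned by the authors with TopHat2 2.1.0 against MSU Release 7, and they deposited FPKM per gene from Cufflinks 2.1.1. These values are not counts and give no depth, so no counting error is stated. FPKM are shares of a library, so a few very abundant genes lower the values of all others.

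Genes absent from the list of a library counted as 0 there. The 26 genes were chosen on group means, and the genes and lists were chosen with earlier results of these data known. Genes that averaged 1 FPKM or more were fitted on log2(FPKM + 1) by limma 3.58.1 (R 4.3.3; a single model of the 4 groups, mean-variance trend, Benjamini-Hochberg adjustment over 21470 genes) and a call needed an adjusted p below 0.05 with a change of 1 or more on the log2 scale. Fold changes of low genes are understated by the pseudocount. Differences between a high and a low group were used to choose the genes and are a description. Same-numbered *WYJ8* libraries of the 2 stages had weak correlations of their deviations from the group means, 0.11, 0.25 and 0.18. This was the 1 pair of groups of 6 with every such value over 0.1. Libraries of different number in these groups ran from -0.27 to 0.105. Between the high groups, replicate 2 of *WYJ8* at 5 DAF and replicate 3 of *RGB1Ri-5* at 10 DAF reached 0.395. With a replicate block all 26 were called lower in *WYJ8* at 10 DAF than at 5 DAF, against 33.4% of tested genes. The choice of the genes had fixed this call, so it does not show what pairing changes. The procedure was tested on simulated data.

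Alternatives were 4 rescalings (quantile normalization, median of ratios, and equal totals of 1000000 with and without the 100 highest genes), a pseudocount of 0.1, no filter and a mean of at least 5 FPKM, unlisted values as missing, a model of only the 6 libraries compared, a replicate block, no trend, no fold limit, other limits for the choice, and each library left out.

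The rule for named genes allowed 2 identifiers in each direction where no names can be given. All 26 are given by identifier here since they are the subject, and the others were named after their values were seen. The RefSeq gene table used here held 1 of the 35587 identifiers, which is not among the 26. Product lists, tissue markers, promoter motifs and *RGB1* were therefore not analysed here.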

Additional observations from a re-analysis of the deposited data

How the results depend on the processing

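The number of genes that met the limits was 26 as deposited, 7 after a median-of-ratios rescaling, 15 after quantile normalization, 55 with an equal total, 17 with an equal total without the 100 highest genes, 65 with a 3-fold limit and 6 with a 6-fold limit. It ranged from 22 to 33 when 1 library was left out. The number of the 26 called lower in *RGB1Ri-5* at 10 DAF than in *WYJ8* at 5 DAF ranged from 0 to 1 when 1 library was left out, with the 1, LOC_Os01g55690, without replicate 2 of *RGB1Ri-5* at 10 DAF. None was called higher under the 24 alternatives. Over all tested genes, 119 were called higher and 116 lower in that comparison, 313 and 486 without that library, 59 and 56 without replicate 1 of the same group, and 48 and 39 in a model of only the 6 libraries compared.

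Between *WYJ8* at 10 DAF and *RGB1Ri-5* at 5 DAF, the number of the 26 called higher ranged from 6 to 10 and the number called lower from 4 to 9 over the 24 alternatives. Over all tested genes, 1378 were called higher and 8300 lower as deposited, 3145 and 3883 after a median-of-ratios rescaling, 3105 and 3482 after quantile normalization, and 2619 and 4390 without the 100 highest genes. Of 597 single-gene values, 13 lost a call and 18 gained one, and none of the called genes changed direction. The cause was not tested.

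The labels do not say whether replicate numbers pair the libraries compared here, and the few correlations below cannot settle it. Same-numbered libraries of the high groups had correlations of their deviations from the group means of 0.15, -0.54 and -0.13, and those of the low groups of -0.03, -0.03 and 0.02. With the replicate block, 0 of the 26 were called higher and 0 lower between the high groups, and 7 and 6 between the low groups, as without it. Over all tested genes the block gave 84 higher and 83 lower between the high groups.

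Depth is unknown, so what the number of reads limits cannot be stated. Values near 0 FPKM and unlisted values are the least certain.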
